A study of Oryctolagus cuniculus with 12 samples.

Results

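The genes described here make up the sodium and chloride transport machinery of an epithelium, and they were measured in rabbit conjunctiva from control eyes and from eyes after glaucoma surgery. The members were chosen by name. A gene row was taken when its name was SCNN1A, SCNN1B, SCNN1G, CFTR, ANO1, SLC12A2, ATP1B1, or CA2. Of these 8 names, 7 had a row among 20566 gene rows. No row was named ANO1, and 2 rows whose description was anoctamin-1, the ANO1 protein, are given beside the members and are not counted with them.

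The conjunctiva is the mucous membrane over the white of the eye and inside the lids, and its epithelium moves salt and water between the tear film and the tissue below. Sodium can enter such cells from the tear side through the epithelial sodium channel (ENaC). This channel is assembled from alpha, beta, and gamma subunits encoded by SCNN1A, SCNN1B, and SCNN1G. Chloride is loaded from the tissue side by the sodium-potassium-chloride cotransporter encoded by SLC12A2, on the gradient kept by the Na+/K+-ATPase of which ATP1B1 encodes a beta subunit, and it leaves through the cAMP-gated channel CFTR or the calcium-gated channel ANO1. CA2 encodes a cytosolic carbonic anhydrase, which makes bicarbonate and protons available to exchangers.

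RNA was sequenced in 12 libraries of conjunctiva from female Japanese white rabbits, aged 12 to 14 weeks where an age is stated. The 3 control libraries came from left eyes, and 3 libraries each came from right eyes, from conjunctiva with its filtering bleb, taken 3 hours (group TL3h), 3 days (group TL3d), or 14 days (group TL14d) after trabeculectomy. This operation drains aqueous humor through a scleral flap to a space under the conjunctiva. Every operated eye had mitomycin C, a DNA crosslinker that limits scarring, during the operation, and then betamethasone, a glucocorticoid, under the conjunctiva and an ointment of erythromycin and colistin. The sources do not say which animals gave the control libraries, at which time, or whether an eye gave more than 1 library, so p-values measure only the spread between these libraries. Surgery, mitomycin C, betamethasone, and draining fluid cannot be told apart in this design.

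The positions below are those of the gene table on the rabbit build OryCun2.0, and each of the 9 rows had 1 transcript. SCNN1A lies on chr8:32419340-32443570. SCNN1G (chr6:14008235-14035215) and SCNN1B (chr6:14148948-14165989) are neighbours on chromosome 6. CFTR lies on chr7:27524303-27737713, SLC12A2 on chr3:11738449-11831481, ATP1B1 on chr13:23871538-23892960, and CA2 on chr3:101101607-101118201. The anoctamin-1 rows are LOC103347173 and LOC103346912, and both lie on sequence not placed on a chromosome. The gene ID of LOC103347173 carries the symbol ANO1 in RefSeq's table of the newer assembly mOryCun1.1, and the ID of LOC103346912 has no entry there. Both may be pieces of 1 gene, and the deposited counts of both were whole numbers in every library.

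Levels of different genes were compared per transcript length, as FPKM (fragments scaled by length in kilobases and by depth). By the mean FPKM over 12 libraries, ATP1B1 stood first (156 ± 46.2 SD) and SLC12A2 second (92.6 ± 23.8). The ENaC alpha subunit SCNN1A followed at 30.3 ± 12.7 FPKM. These 3 genes kept this order in 12 of 12 libraries for each neighbouring pair, and they are the pump subunit, the chloride loader, and a sodium entry subunit.

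The order in the middle was not fixed. CA2 averaged 10.3 ± 19.3 FPKM, LOC103347173 averaged 6.93 ± 7.04, CFTR averaged 6.32 ± 3.56, and LOC103346912 averaged 3.23 ± 3.25. CA2 exceeded LOC103347173 in 5 of 12 libraries, and LOC103347173 exceeded CFTR in 5 of 12, so these neighbours did not differ beyond their spread.

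The other ENaC subunits were close to the detection limit. SCNN1G averaged 0.208 ± 0.134 FPKM and SCNN1B averaged 0.0785 ± 0.0438 FPKM. The mean FPKM of SCNN1A was 146 times that of SCNN1G and 386 times that of SCNN1B. Over all 12 libraries together, SCNN1G had 148 counts and SCNN1B had 81 counts, against 37267.5 for SCNN1A. A count of 0 would allow up to 3 counts, and the lowest library of each of SCNN1G and SCNN1B held 3, so a low level in single libraries is known only roughly. Whether the annotated transcripts of these subunits cover the whole messenger RNA was not tested.

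**Figure D1:**
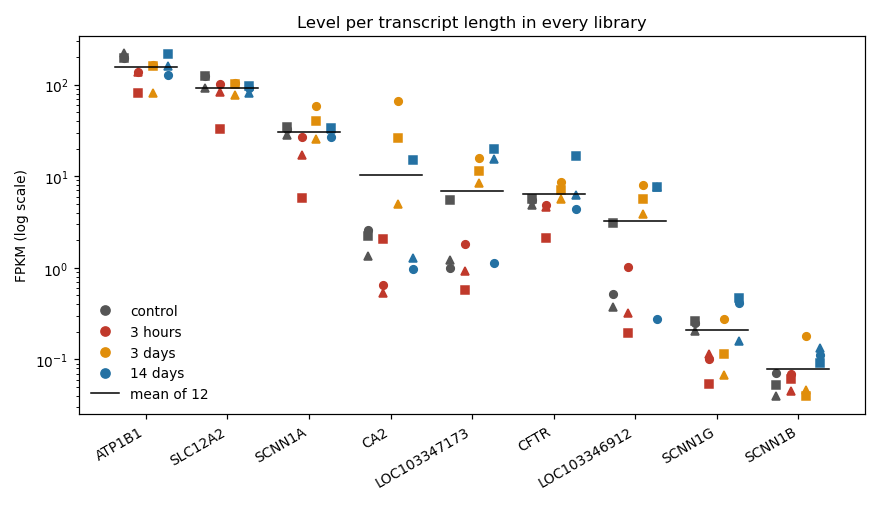
FPKM (log axis) of the 7 members and the 2 anoctamin-1 rows in each of 12 libraries, coloured by group, with a line at the mean of 12. Marker shape gives the replicate (circle 1, square 2, triangle 3). ATP1B1 (mean 156) stands highest and SCNN1B (mean 0.0785) lowest, and CA2 spreads over the widest range, from 0.531 to 66.6 FPKM.

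The total count per library was 27111276 to 38591374, and 14835 genes had enough counts to be tested. Levels of 1 gene across libraries are given as CPM (a count as a share of the library total, scaled by TMM, which balances libraries on their shared genes). Groups were compared in edgeR by a quasi-likelihood test fitted once to the 12 libraries. Its p adjusted by the Benjamini-Hochberg method over all genes tested is called q, with a threshold of 0.05. Among all genes, 6733 passed at 3 hours, 2608 at 3 days, and 0 at 14 days (edgeR; 1538 had an unadjusted p under 0.05 at 14 days, and 367 passed by DESeq2). The count at 3 days was 4471 by DESeq2 and 359 to 3778 with 1 library left out, lowest without TL3d replicate 2 and highest without TL14d replicate 1. With 1 library left out the count at 14 days was 0 to 716, and it was 716 without TL14d replicate 1. At 3 hours 3435 were higher and 3298 lower, and with scaling by library size alone 1889 were higher and 5674 lower, since that scaling moves the median over all genes from 0.02 to -0.47 on the log2 scale.

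The label of conjunctiva was checked against 17 epithelium markers, all of which were detected in every group. Their summed level was 7018 to 14080 CPM in the control libraries, 6411 to 12940 at 3 hours, 6933 to 16080 at 3 days, and 10650 to 14730 at 14 days. The lowest library was replicate 3 in the control group, replicate 2 at 3 hours, and replicate 3 at 3 days. The summed level of 7 fibroblast markers was 12210 to 76480 CPM in the control libraries, 105300 to 125800 at 3 hours, 1336 to 65000 at 3 days, and 11040 to 57240 at 14 days. That of 12 leukocyte markers was 108 to 514 CPM in the control libraries, 1791 to 4586 at 3 hours, 2199 to 2720 at 3 days, and 145 to 1060 at 14 days. Summed endothelium markers (4 genes) were above the control range of 62.2 to 263 CPM at 3 hours and 3 days (lowest library 599 and 286 CPM). PECAM1 made up most of that sum at 3 hours (459 to 972 CPM). KDR overlapped its control range (10.2 to 24.6 CPM at 3 hours against 19.4 to 46.3 CPM). By edgeR 2 of these 4 markers were higher at 3 hours and 0 at 3 days. Summed Schwann cell markers (4 genes) were below the control range of 5.40 to 13.2 CPM at 3 days (highest library 3.81 CPM). The sums of goblet cell, lacrimal gland, skeletal muscle, and adipocyte markers overlapped the control range at each time. Skeletal muscle markers summed to 178 CPM in control replicate 2 and 265 CPM in TL3d replicate 3, and to at most 6.80 CPM in every other library. In bulk tissue, fewer epithelial cells and less RNA per epithelial cell cannot be told apart.

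**Figure D2:**
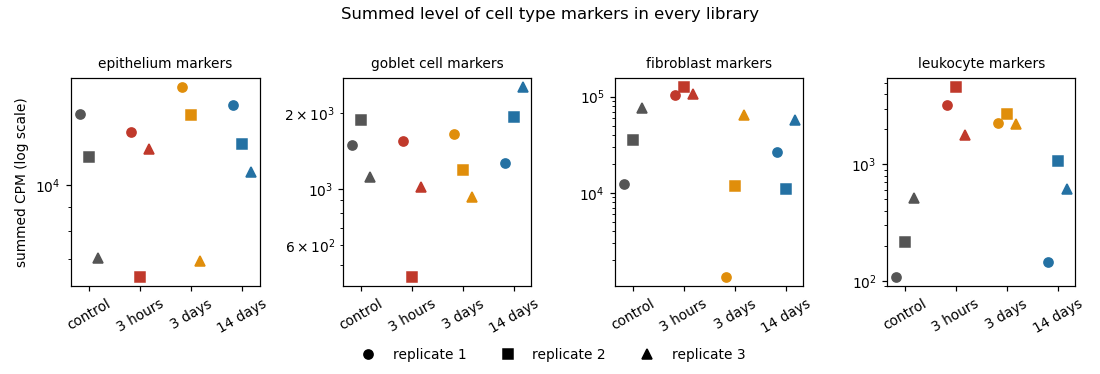
Summed CPM (log axis) of the markers of 4 cell types in each library, by group, with the marker shape giving the replicate. The epithelium sum is lowest in control replicate 3 (7018), TL3h replicate 2 (6411), and TL3d replicate 3 (6933), and the leukocyte sum is above all control libraries in every library at 3 hours and 3 days.

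The first question was whether the genes of ENaC, an entry path for sodium, changed after surgery. SCNN1A was measured at 91.3, 95.6, and 83.2 CPM in the control libraries. At 3 hours it was 105, 23.1, and 65.0 CPM, at 3 days 162, 111, and 73.5 CPM, and at 14 days 75.6, 92.5, and 93.4 CPM. The control libraries lay close together and the operated eyes spread around them, so the groups overlapped at every time.

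SCNN1A did not pass the threshold at any time. Its log2 fold change against control was -0.48 at 3 hours (95% interval -1.47 to 0.51, q = 0.412), 0.36 at 3 days (-0.63 to 1.35, q = 0.587), and -0.05 at 14 days (-1.03 to 0.94, q = 0.978). Each of these intervals reaches a change of 1 on the log2 scale in some direction, so changes of that size were not resolved. The low value at 3 hours came from replicate 2, and without it the log2 fold change at that time was -0.14.

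The gamma subunit SCNN1G had 17, 17, and 14 counts in the control libraries. It had 6, 3, and 7 counts at 3 hours, 18, 6, and 4 at 3 days, and 20, 28, and 8 at 14 days. All 3 libraries at 3 hours lay below the control libraries in CPM (0.124 to 0.256 against 0.351 to 0.425), with a log2 fold change of -0.93 (SE 0.60, q = 0.235). SCNN1G passed the filter on low counts mainly through its control and 14-day libraries, and no comparison of it passed the threshold.

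The beta subunit SCNN1B had too few counts to be tested. It had 7, 5, and 4 counts in the control libraries, 6, 5, and 4 at 3 hours, 17, 3, and 4 at 3 days, and 8, 8, and 10 at 14 days. In CPM the 14-day libraries (0.217 to 0.326) lay above the control libraries (0.10 to 0.166), without a test.

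CFTR, the cAMP-gated chloride exit, was steady in the control group at 25.8, 26.3, and 23.9 CPM. It was 32.0, 14.4, and 29.6 CPM at 3 hours, 40.6, 32.5, and 27.5 CPM at 3 days, and 21.0, 77.1, and 29.7 CPM at 14 days. The 3-day libraries all lay above the control libraries, although the log2 fold change was small (0.40, SE 0.44, q = 0.539).

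The highest CFTR level of all was in TL14d replicate 2. The log2 fold change at 14 days was 0.75 (SE 0.44, q = 0.585), and without that library it was 0.000398. At 3 hours the 95% interval of the log2 fold change was -0.99 to 0.99 around a value near 0 (q = 0.999).

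The anoctamin-1 rows changed more than CFTR across libraries. LOC103347173 was 1.19, 6.53, and 1.53 CPM in the control libraries, 3.04, 0.996, and 1.50 CPM at 3 hours, 18.7, 13.6, and 10.6 CPM at 3 days, and 1.34, 23.3, and 18.9 CPM at 14 days. LOC103346912 was 0.688, 4.10, and 0.527 CPM in the control libraries, 1.92, 0.373, and 0.585 CPM at 3 hours, 10.7, 7.36, and 5.38 CPM at 3 days, and 0.370, 10.1, and 10.4 CPM at 14 days. In both rows the 3-day libraries lay above every control library and every 3-hour library, and TL14d replicates 2 and 3 were above the 3-day range in LOC103347173 and within it in LOC103346912. TL14d replicate 1 lay among the control libraries for LOC103347173 and below all of them for LOC103346912. It also lay within the 3-hour range for LOC103347173, so the 14-day and 3-hour libraries of that row overlapped.

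The rows kept a narrow ratio to each other. The FPKM of LOC103347173 was 1.76 to 4.05 times that of LOC103346912, with a median of 2.12 over 12 libraries. Against control, LOC103347173 had a log2 fold change of 2.21 at 3 days (SE 0.94, q = 0.119) and 2.24 at 14 days (SE 0.94, q = 0.458), and neither passed the threshold. Without TL14d replicate 1, the q at 3 days was 0.0381 and that at 14 days 0.0623. Against the 3-hour group, LOC103347173 was higher at 3 days (log2 fold change 2.95, SE 0.97, q = 0.0368) and at 14 days (2.97, SE 0.97, q = 0.0305). The first of these calls was lost under 6 of 21 alternatives (q up to 0.111), among them the fits without any 3-hour library or TL3d replicate 1 or 2, and the second under 7 of 21 (q up to 0.0954), among them the fits without TL3h replicate 2 or 3 or TL14d replicate 2 or 3. LOC103346912 missed the threshold in the same comparisons (3.02, q = 0.0665, and 2.85, q = 0.0690).

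SLC12A2, the loader of chloride, was 776, 769, and 620 CPM in the control group. It was 892, 297, and 719 CPM at 3 hours, 654, 628, and 506 CPM at 3 days, and 587, 609, and 522 CPM at 14 days. All 14-day libraries lay below the control libraries, by a log2 fold change of -0.33 (95% interval -1.05 to 0.38, q = 0.742). The gene had the narrowest spread of the tested members over 12 libraries, with a coefficient of variation of 24.3%, and its lowest value, 297 CPM, was again in TL3h replicate 2.

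ATP1B1, the pump subunit, was 212, 207, and 250 CPM in the control group. It was 209, 125, and 205 CPM at 3 hours, 175, 172, and 90.9 CPM at 3 days, and 137, 230, and 176 CPM at 14 days. At 3 days all libraries lay below the control libraries, with a log2 fold change of -0.61 (95% interval -1.27 to 0.04, q = 0.161). At 3 hours the log2 fold change was -0.31 (q = 0.422), and only with scaling by library size alone did it pass the threshold (-0.80, q = 0.0462). Control replicate 3, the control library with the lowest epithelium sum, had the highest ATP1B1 level of the group.

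CA2 was the member with the widest range, 90.7-fold between its lowest and highest library. It was 2.82, 2.45, and 1.56 CPM in the control libraries and 0.999, 3.24, and 0.805 CPM at 3 hours. At 3 days it was 73.0, 28.3, and 5.61 CPM, and at 14 days 1.08, 16.4, and 1.43 CPM. The 3-day libraries all lay above every control and every 3-hour library, yet the highest of them was 13.0 times the lowest, and at 14 days only replicate 2 stood above the control libraries.

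CA2 rose at 3 days. The log2 fold change was 3.97 against control (SE 1.22, 95% interval 1.26 to 6.67, q = 0.0489) and 4.41 against the 3-hour group (SE 1.25, 1.63 to 7.19, q = 0.0196). The call against control was close to the threshold. It was lost under 13 of 21 alternatives, with q from 0.00124 by DESeq2 to 0.156 without TL3d replicate 1, and the log2 fold change stayed between 2.90 and 4.47. Leaving out any control library (q = 0.111 without replicate 3), any 3-hour library (q = 0.0551 without replicate 2), TL3d replicate 2 (q = 0.102), or TL14d replicate 3 also lost it. The call against the 3-hour group was lost under 3 of 21, which were the fits without TL3h replicate 1, TL3h replicate 3 (q = 0.0704), or TL3d replicate 1. At 14 days the log2 fold change was 1.47 (SE 1.11, q = 0.669), and it was -0.86 without TL14d replicate 2. Leukocyte markers were high at the same time, with sums of 2199 to 2720 CPM at 3 days against 108 to 514 CPM in control libraries. The 3-hour libraries had leukocyte sums of 1791 to 4586 CPM beside CA2 levels of 0.805 to 3.24 CPM, and in TL3d replicate 3 a leukocyte sum of 2199 CPM stood beside the lowest CA2 level of the 3-day group. The make-up of the leukocyte sum differed between these times. CXCR2 was 82.6 to 235 CPM at 3 hours and 11.7 to 44.1 CPM at 3 days, and CSF1R was 76.6 to 134 CPM and 274 to 498 CPM. The part of leukocytes in the result was not tested.

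**Figure D3:**
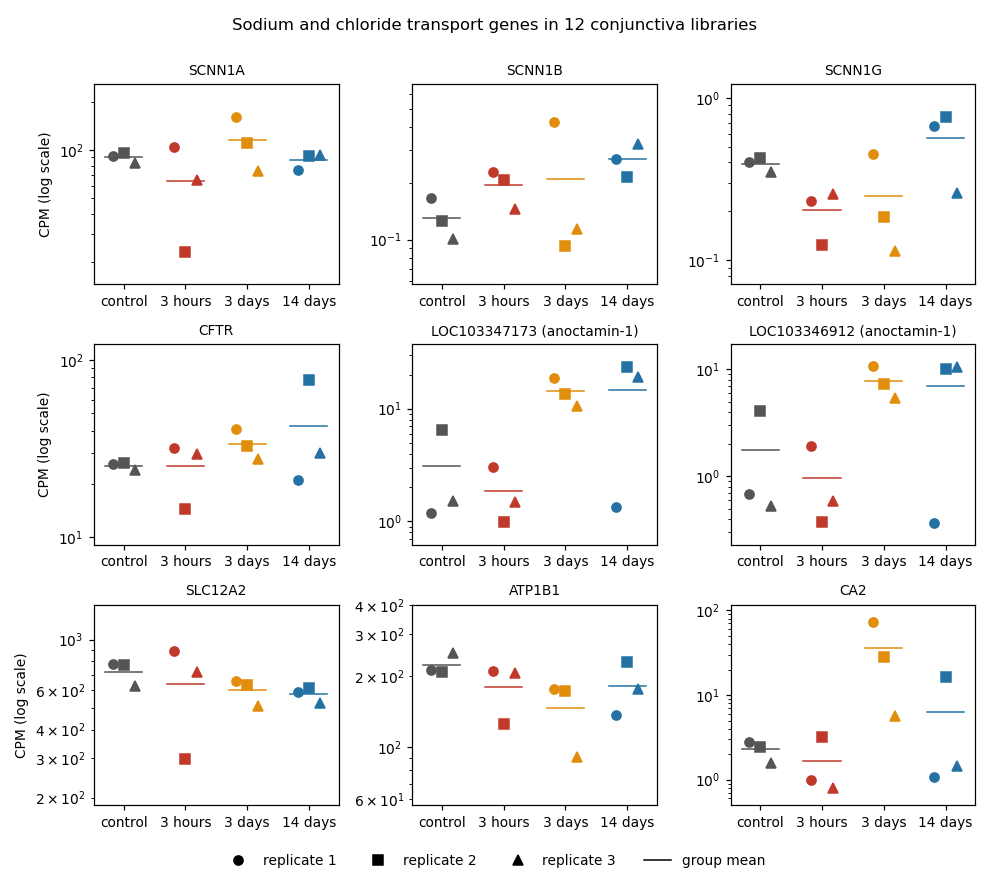
CPM (log axis, scaled for each panel) of the 7 members and the 2 anoctamin-1 rows in every library, by group, with lines at the group means. CA2 at 3 days (5.61 to 73.0 CPM) lies above every control library, while SCNN1A, CFTR, and SLC12A2 have their lowest values of all libraries in TL3h replicate 2 (23.1, 14.4, and 297 CPM).

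Read together, few members passed the threshold. At 3 hours 0 of the 6 tested members passed (edgeR; 0 also had an unadjusted p under 0.05, and 0 passed by DESeq2), where 45.4% of all genes did. At 3 days 1 of 6 passed, CA2, which was higher, where 17.6% of all genes passed and 10.6% were higher. At 14 days 0 of 6 passed, where 0% of all genes did (0 members with an unadjusted p under 0.05, and 0 by DESeq2). Between 3 hours and 3 days 1 of 6 passed and was higher, where 37.3% of all genes passed and 18.4% were higher. Between 3 hours and 14 days 0 of 6 passed, where 45.3% of all genes passed and 22.9% were higher. SCNN1G was the 1 member with an unadjusted p under 0.05 there, and 0 members passed by DESeq2.

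The median log2 fold change of the 6 tested members was -0.38 at 3 hours, 0.04 at 3 days, and 0.24 at 14 days, beside medians of 0.02, -0.002, and 0.02 over all genes. All 3 libraries lay on 1 side of the control libraries for 1 of 6 members at 3 hours (SCNN1G, below), where 57.3% of all genes did so. They did so for 3 of 6 at 3 days (CFTR and CA2 above, ATP1B1 below), where 45.5% of all genes did, and for 1 of 6 at 14 days (SLC12A2, below), where 11.1% did. With 6 members, these shares are known only roughly.

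**Figure D4:**
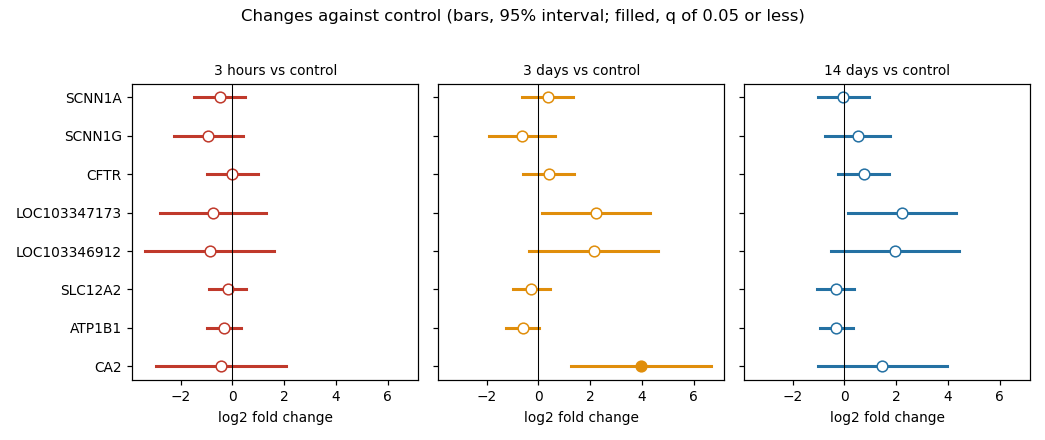
Log2 fold changes against control after 3 hours, 3 days, or 14 days for the 6 tested members and the 2 anoctamin-1 rows, with 95% intervals as bars and filled points where q was 0.05 or less. CA2 at 3 days (3.97) is the filled point, and the intervals of CA2 and the anoctamin-1 rows are the widest.

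Libraries with a low epithelium sum were often those with low levels of the members. In TL3d replicate 1, where the epithelium sum was 16080 CPM and the fibroblast sum 1336 CPM, 9 of the 9 rows were at the highest level of the group. In TL3d replicate 3, with an epithelium sum of 6933 CPM and a fibroblast sum of 65000 CPM, 8 of 9 were at the lowest. In TL3h replicate 2, with an epithelium sum of 6411 CPM, 7 of 9 were at the lowest, and CA2 there was at the highest. In control replicate 3, with an epithelium sum of 7018 CPM, 7 of 9 were at the lowest. At 14 days the epithelium sum was highest in replicate 1, where 6 of 9 rows were at the lowest. The part of the share of epithelium in the members' levels was not tested.

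Set against the epithelium sum of the same library, the range of SCNN1A was narrower than in CPM at 3 hours and 3 days and wider in the control group and at 14 days. It was 7.90 to 10.6 per 1000 epithelium marker CPM at 3 days, 6.49 to 11.9 in the control group, 3.61 to 8.13 at 3 hours, and 5.14 to 8.77 at 14 days. CA2 was 0.809 to 4.54 per 1000 at 3 days and 0.201 to 0.222 in the control group, so the groups stayed apart on this scale. ATP1B1 was 10.9 to 13.1 per 1000 at 3 days and 15.03 to 35.7 in the control group. LOC103347173 was 0.966 to 1.52 per 1000 at 3 days and 0.0843 to 0.570 in the control group. CFTR was 2.31 to 3.96 per 1000 at 3 days and 1.83 to 3.41 in the control group, so its groups overlapped on this scale. SLC12A2 overlapped too (40.6 to 73.0 against 55.1 to 88.4). SCNN1G lay below the control group (0.01315 to 0.02796 against 0.02866 to 0.05003). The epithelium markers themselves were not constant, since 4 of 17 were higher and 5 lower at 3 hours, so this scale carries their changes, and no test was run on it.

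The genes that regulate or complete these transporters were looked at in 6 lists with 73 tested genes. At 3 hours 17 of them were higher and 14 lower than control, 42.5% in all, where 23.2% of all genes were higher, 22.2% lower, and 45.4% either. With scaling by library size alone, 11 were higher and 19 lower at 3 hours. At 3 days 3 were higher and 7 lower, 13.7% in all, where 10.6% of all genes were higher, 7% lower, and 17.6% either. With DESeq2 in place of edgeR 25 passed at 3 days, and with 1 library left out 1 (without control replicate 2) to 17 (without TL14d replicate 1). The balance of directions at 3 days was not stable, since 7 were higher and 5 lower with the replicate block, 7 and 4 without TL3d replicate 3, 6 and 5 without control replicate 3, and 2 and 0 without TL3d replicate 1 or 2. At 14 days 0 of 73 passed by edgeR, 11 had an unadjusted p under 0.05, and 3 passed by DESeq2, as did 3 by edgeR without TL14d replicate 1. The shares of the lists at 3 hours and 3 days in the fit to 12 libraries were near those of all genes, and the values below describe single genes.

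ENaC regulators came first. Of 16 tested, 3 were higher (5 without control replicate 3) and 2 lower at 3 hours, where 23.2% of all genes were higher and 22.2% lower. The median log2 fold change of the 16 was 0.16. SGK1 encodes a glucocorticoid- and serum-induced kinase that keeps ENaC at the cell surface. It was 35.0, 28.1, and 83.0 CPM in the control libraries, 579, 417, and 376 CPM at 3 hours, 128, 83.2, and 64.2 CPM at 3 days, and 43.9, 94.1, and 44.1 CPM at 14 days. Every 3-hour library was far above every other library, by 9.39-fold over control (log2 fold change 3.23, SE 0.50, q = 0.000612).

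NEDD4L encodes the ubiquitin ligase that takes ENaC off the surface and that SGK1 restrains. It was 120, 132, and 77.0 CPM in the control libraries, 39.6, 22.6, and 65.4 CPM at 3 hours, 39.1, 46.5, and 53.5 CPM at 3 days, and 120, 119, and 95.1 CPM at 14 days. It fell at 3 hours (log2 fold change -1.37, SE 0.34, q = 0.00870) and at 3 days (-1.24, SE 0.34, q = 0.0358), and all libraries of both times lay below the control libraries. The call at 3 days was lost under 6 of 21 alternatives (q up to 0.118), among them the fits without control replicate 1 or 2 or any 3-day library.

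NR3C2, the mineralocorticoid receptor through which aldosterone acts on ENaC, fell at 3 hours to 0.209 of its control level and at 3 days to 0.267 of it (q = 0.000929 and 0.0142), and the later call was lost without control replicate 2 or TL3d replicate 1 or 2 (q up to 0.0580). FURIN, a protease that cleaves ENaC subunits on their way to the surface, rose 3.15-fold at 3 hours and 3.01-fold at 3 days (q = 0.000311 and 0.00851). WNK1, a kinase upstream of the chloride cotransporters, rose 1.70-fold at 3 hours (q = 0.00627), but not with scaling by library size alone (q = 0.254). PRSS8, the gene of another ENaC protease, had no row. SGK1 and NEDD4L changed in opposite directions at 3 hours, while SCNN1A and SCNN1G showed no call and SCNN1B was not tested.

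SGK1 and TSC22D3 are induced by glucocorticoids, and betamethasone was given to the operated eyes. Of 7 tested glucocorticoid-induced genes, 1 was higher at 3 hours, DUSP1, and 2 were lower at 3 days, TSC22D3 and ZBTB16, where 23.2% of all genes were higher at 3 hours and 7% lower at 3 days. By DESeq2 4 were lower at 3 days. Without control replicate 3, 4 were higher at 3 hours, and 1 was higher and 0 lower at 3 days. FKBP5 was 7.26 and 8.83 CPM in control replicates 1 and 2 and 454 CPM in control replicate 3, and it was 185 to 296 CPM at 3 hours. ZBTB16 was 13.0 and 14.0 CPM in control replicates 1 and 2 and 275 CPM in control replicate 3, against 2.05 to 4.35 CPM at 3 days. Its fall at 3 days (q = 0.0268) was lost under 4 of 21 alternatives (q up to 0.0997), which were the fits without control replicate 3 or TL3d replicate 1 or 2 and the fit to only the 6 libraries compared, and that of TSC22D3 (q = 0.0449) was lost under 11 of 21 alternatives (q up to 0.135), among them the fits without any control, 3-hour, or 3-day library. SGK1 was also highest in control replicate 3 within its group, and its call at 3 hours held under all 21 alternatives. The part of the glucocorticoid in these levels was not tested.

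Chloride channels and anion exchangers gave the largest single change of the lists. Of 13 tested, 4 were higher and 2 lower at 3 hours, where 23.2% of all genes were higher and 22.2% lower. The median log2 fold change of the 13 was 0.18. With scaling by library size alone 3 were higher and 4 lower, and without control replicate 3, 6 were higher and 2 lower. SLC26A9, an epithelial chloride channel of the SLC26 family, was 0.427, 0.050, and 0.376 CPM in control libraries, and at 3 hours 31.1, 23.9, and 25.8 CPM. At 3 days it was 1.97, 1.02, and 0.0569 CPM, and at 14 days 0.101, 1.22, and 0.749 CPM. The 3-hour libraries stood apart from the other 9 (log2 fold change against control 6.54, SE 1.22, q = 0.00177), and the size of the fold is rough because the control libraries were near the detection limit.

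LRRC8A, the obligatory subunit of the volume-regulated anion channel, rose 4.83-fold at 3 hours (q = 0.000485). SLC26A6, an exchanger of chloride for bicarbonate and oxalate, rose 2.74-fold at 3 hours (q = 0.00133) and 1.82-fold at 3 days (q = 0.0427), and the later call was lost under 9 of 21 alternatives (q up to 0.132), among them the fits without any control or 3-day library, TL3h replicate 1, or TL14d replicate 3. ANO6, a calcium-gated scramblase and channel named after its values were seen, made the fourth that was higher (q = 0.0439), and it was lost under 14 of 21 (q up to 0.336), 9 of which left out 1 library. CLCN3, an exchanger of endosomes, fell to 0.468 of control at 3 hours (q = 0.00895), and ANO10, an anoctamin of inner membranes, to 0.539 (q = 0.00154). At 3 days SLC26A6 was the 1 of 13 that passed, where 17.6% of all genes did.

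Genes of basolateral ion loading followed. Of 12 tested, 5 were higher and 2 lower at 3 hours, where 23.2% of all genes were higher and 22.2% lower. The median log2 fold change of the 12 was 0.61. With scaling by library size alone 2 were higher and 2 lower, and with 1 library left out 3 to 5 were higher, lowest without control replicate 2 or TL3h replicate 1. ATP1B3, another beta subunit, named after its values were seen, was higher at 3 hours (log2 fold change 0.56, q = 0.0367), a call lost under 12 of 21 alternatives (q up to 0.856), among them the fits without any control or 3-hour library or TL3d replicate 2. FXYD5, a small modulator of the pump, was 5.06, 9.31, and 9.26 CPM in the control libraries, 47.0, 60.7, and 29.2 CPM at 3 hours, and 73.1, 80.7, and 106 CPM at 3 days. At 14 days it was 7.83, 72.6, and 57.8 CPM, with replicates 2 and 3 above every control library. Its log2 fold change there was 2.55 (edgeR, q = 0.346), and it passed by DESeq2 (q = 0.00548) and by edgeR without TL14d replicate 1 (q = 0.00538). FXYD5 rose at 3 hours and 3 days (log2 fold change 2.54, q = 0.00991, and 3.46, q = 0.0147). It was the 1 of 12 that passed at 3 days, where 17.6% of all genes did. The 3-day call was lost without control replicate 1 or 2 (q up to 0.0573). Leukocyte markers were also higher at these times, and their part in the result was not tested.

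The cotransporters that carry chloride out with potassium went in different directions at 3 hours, since SLC12A4 rose 2.55-fold (q = 0.0112) and SLC12A7 fell to 0.396 of control (q = 0.000458). The kinases that switch SLC12A2 on also differed. OXSR1 rose 1.79-fold (q = 0.00363), although not with scaling by library size alone (q = 0.154), and STK39 fell to 0.282 of control (q = 0.0118).

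Potassium channels set the voltage that drives chloride out. Of 10 tested, 2 were higher and 2 lower at 3 hours, where 23.2% of all genes were higher and 22.2% lower. The median log2 fold change of the 10 was 0.41. The calcium-gated channel KCNN4 was 11.2, 8.58, and 6.05 CPM in control libraries, and at 3 hours 89.3, 46.4, and 63.4 CPM, and it rose with a log2 fold change of 2.95 (q = 0.000300). KCNK1, a background channel, was 6.27, 6.30, and 12.6 CPM in control libraries, and at 3 hours 99.8, 46.8, and 87.9 CPM (log2 fold change 3.22, q = 0.00252). KCNE3, the subunit that holds KCNQ1 open in secretory cells, fell by 1.79 on the log2 scale (q = 0.0102), and KCNQ1 itself by 1.20 (q = 0.0415), which was lost under 8 of 21 alternatives (q up to 0.102), among them the fits without any control library, TL3h replicate 3, TL3d replicate 1 or 2, or TL14d replicate 3. At 3 days 0 of 10 passed by edgeR, where 17.6% of all genes did. Of the 10, 3 had an unadjusted p under 0.05, and 1 passed by DESeq2.

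Of 14 other carbonic anhydrases and acid-base transporters, 1 was higher and 4 lower at 3 hours. Among all genes, 23.2% were higher and 22.2% lower. The median log2 fold change of the 14 was -1.10. With 1 library left out 1 to 3 were higher, highest without control replicate 3, and 1 to 4 lower, lowest without control replicate 1 or TL3h replicate 2. SLC4A7, a sodium bicarbonate cotransporter, rose 3.85-fold (q = 0.000340), and SLC4A4, another, fell to 0.406 of control at 3 hours (q = 0.0271) and to 0.290 at 3 days (q = 0.0223). Both calls were lost without control replicate 1 or 2, the first also without TL3h replicate 1 or 2 (q up to 0.0842) and the second without TL3d replicate 1 or 2 (q up to 0.0779). CA13, a cytosolic carbonic anhydrase like CA2, was 105, 133, and 52.9 CPM in the control libraries, 28.9, 9.21, and 23.0 CPM at 3 hours, and 55.1, 48.6, and 58.2 CPM at 3 days. It fell at 3 hours (log2 fold change -2.25, q = 0.00505), when CA2 had a log2 fold change of -0.44. CA8, a related protein without enzyme activity, fell at 3 hours (q = 0.0332), as did CA14 (q = 0.0258), which was named for that time after its values were seen. CA14 also fell at 3 days, to 0.397 of control (q = 0.0297). These 3 calls of CA8 and CA14 were each lost without control replicate 1 or 2 and without at least 2 of the libraries of the operated group (q up to 0.103).

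Of 8 receptors and carriers that drive or use ion transport in conjunctiva, 2 were higher and 2 lower at 3 hours. Among all genes, 23.2% were higher and 22.2% lower. The median log2 fold change of the 8 was -0.13. P2RY2, the nucleotide receptor that stimulates conjunctival fluid secretion, was 54.8, 55.5, and 67.8 CPM in control libraries, and at 3 hours 220, 104, and 161 CPM (log2 fold change 1.45, q = 0.00368). SLC6A14, an amino acid carrier driven by sodium and chloride, was also higher at 3 hours (1.53, q = 0.0255), a call lost under 6 of 21 alternatives (q up to 0.103), among them the fits without any control library or TL3h replicate 1 or 3. VIPR1, a receptor for vasoactive intestinal peptide, fell by 2.68 on the log2 scale (q = 0.0123), and ADCY6, an enzyme that makes cAMP, by 1.26 (q = 0.000441).

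At 3 days VIPR1 and the nucleotide receptor P2RY4 were lower (q = 0.0444 and 0.0465), and these calls were lost under 7 and 10 of 21 alternatives (q up to 0.137), among them the fits without control replicate 1 or 2, TL3h replicate 3, any 3-day library, or TL14d replicate 3. SLC5A1, the sodium-glucose carrier, ranged from 23.9 to 101 CPM in the control group and passed at no time (log2 fold change 0.02 at 3 hours, -0.37 at 3 days, and -0.54 at 14 days).

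**Figure D5:**
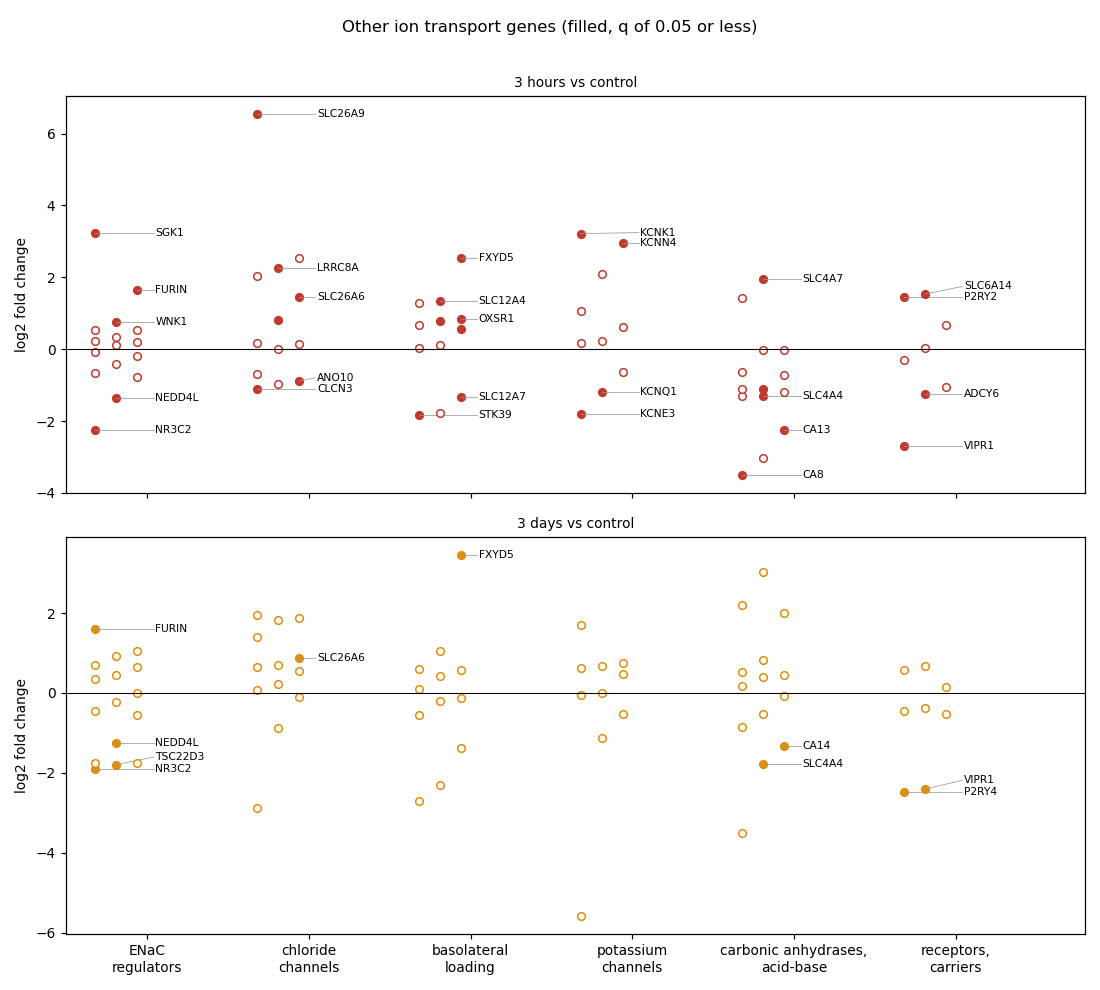
Log2 fold changes against control at 3 hours and 3 days of the tested genes of 6 lists, with filled points where q was 0.05 or less and names for those chosen by the naming rule. At 3 hours 17 points are filled above 0 and 14 below, with SLC26A9 (6.54) highest and CA8 lowest, and at 3 days 3 are filled above and 7 below.

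For each tested member, the genes with the most similar profile were those whose centred log2 CPM over 12 libraries had the smallest root-mean-square difference from its own, among the 13253 genes that averaged 1 CPM or more. SLC12A2 had the smallest difference, from SLC35A3, of 0.151 where its own spread was 0.388, followed by TBC1D1 and SH3YL1. SCNN1A was closest to EPHA1 (0.255, own spread 0.640), RAB27B, and DUOX1. ATP1B1 was closest to OXR1 (0.231, own spread 0.401), HACD2, and CARMIL1, and CFTR to MICALL1 (0.311, own spread 0.550) and also ADCY7.

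The smallest differences of SCNN1G and CA2 were larger in absolute size, beside wider spreads of their own. SCNN1G was closest to TGFA (0.361, own spread 0.682), ASTN2, and LMTK2. CA2 was closest to TGM7 (0.799, own spread 1.96), LOC100355380, and MYBL2. The anoctamin-1 row LOC103347173, not a member, was closest to LOC103346912 (0.324, own spread 1.69), followed by LYPD6B and the row named ANO7. The profiles share libraries and depth, and the distances are a description without a test.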

How the data were processed

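RNA of 12 conjunctiva libraries was measured by TruSeq stranded mRNA sequencing. The authors mapped paired-end reads to OryCun2.0 with STAR (2.6.0c per the submitters' processing notes) and used GeneData Profiler Genome. The authors deposited estimated counts per gene, not divided by library size, of which 23.4% were fractions, and how shared reads were divided is not given in the sources used here. The authors also deposited FPKM values, which were divided by length and depth and were used only to compare levels between genes. Transcript tables were used only in an alternative.

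The deposited estimated counts were rounded to integers. Of 20566 genes, 14835 passed filterByExpr with a minimum count of 10 and a minimum total of 15. Counts were scaled by TMM and tested by the quasi-likelihood test of edgeR 4.0.16 (R 4.3.3) with 12 libraries in 1 fit, 5 comparisons, no covariate, and Benjamini-Hochberg adjustment over all genes tested (threshold 0.05). The TMM factors were 0.768 to 0.783 in the 3-hour libraries and 1.03 to 1.13 in the others. Standard errors come from the log2 fold change and its test statistic. The detection limit of 3 counts was 0.0712 to 0.124 CPM, and it covers counting error only. The code of the fit was run on simulated counts with the same spread for every gene, which does not measure its error rate in these data. No pair of libraries within a group was a copy. Alternatives, 21 for most values, were DESeq2 1.42.0, its size factors in edgeR, library size only, no filter, a mean of at least 1 CPM, the compared libraries alone, a replicate block, limma-trend (limma 3.58.1), summed transcripts, and each library left out.

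Named genes were all members, the genes of each list that passed the threshold and averaged 1 CPM or more (at most 3 with the largest change in each direction and comparison), SGK1, NEDD4L, PRSS8, and SLC5A1, and the 3 most similar genes of each member. Of the genes so named, those called only between operated groups are not described, and some that the rule names are not reported here. The members and lists were chosen with earlier results of these data known.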

Additional observations from a re-analysis of the deposited data

Results flagged for a closer look

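Differences between time points were tested directly. CA2 was higher at 3 days than at 3 hours, with a log2 fold change of 4.41, and LOC103347173, an anoctamin-1 row, was higher at 3 days (2.95) and at 14 days (2.97) than at 3 hours by edgeR's quasi-likelihood test. These 3 results drew attention because the levels at these times differed in a direct test between the groups. They passed under 18, 15, and 14 of 21 alternatives, in that order. At 14 days the libraries of LOC103347173 overlapped the 3-hour libraries, since TL14d replicate 1 (1.34 CPM) lay within the 3-hour range (0.996 to 3.04 CPM). Groups of 3 libraries are too small for a test of single outlying libraries.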

How the results depend on the processing

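With scaling by library size alone, the members past the threshold numbered 1 of 6 at 3 hours and 0 at 3 days against control, and 2 both at 3 days and at 14 days against 3 hours. At 3 days against control, 0 passed with DESeq2's size factors in edgeR, without the filter, and with limma-trend. Over the fits that left out 1 library, the count ran from 0 to 1 at 3 days against control, from 0 to 1 at 3 days against 3 hours, and from 0 to 1 at 14 days against 3 hours. At 14 days against control it stayed at 0 under the alternatives run. At 3 days against control, 2608 of all genes and 10 of 73 list genes passed by edgeR, and 4471 and 25 by DESeq2.

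Some log2 fold changes that had not passed the threshold changed sign. That of CFTR at 3 hours was 0.033 with the replicate block. With scaling by library size alone, SLC12A2 had 0.38 at 3 days and 0.33 at 14 days against 3 hours, and ATP1B1 had 0.18 at 3 days against 3 hours. SLC12A2 had 0.041 at 3 days against 3 hours by limma-trend. With 1 library left out, the log2 fold changes at 3 hours ran from -0.25 to 0.23 for CFTR, -0.56 to 0.10 for SLC12A2, -1.34 to 0.44 for LOC103347173, and -1.92 to 0.66 for LOC103346912. At 14 days they ran from -0.11 to 0.045 for SCNN1A and -0.86 to 1.97 for CA2. Against 3 hours they ran from -0.45 to 0.64 for SCNN1G and -0.40 to 0.27 for SLC12A2 at 3 days, and from -0.45 to 0.22 for SLC12A2, -0.20 to 0.18 for ATP1B1, and -0.41 to 2.84 for CA2 at 14 days. The causes were not tested beyond the scaling and the libraries left out. Of the other values of members and anoctamin-1 rows under an alternative, 767 kept their direction and side of the threshold, 29 lost a call, and 16 gained one.

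Same-numbered control and operated libraries correlated by -0.17 to 0.50 in their deviations from the group means. Of 9 operated libraries, 5 were closest to the control library of their number. These values do not settle whether the numbers are pairs. The sources do not say which animals gave the control libraries, so the numbers were not taken as pairs. With the replicate number as a block, 6946 genes passed at 3 hours, 2719 at 3 days, and 0 at 14 days by edgeR. CA2 at 3 days kept a log2 fold change of 3.65 against control (q = 0.0423) with the replicate block, and LOC103347173 missed the threshold against 3 hours (2.87, q = 0.0534 at 3 days, and 2.71, q = 0.0740 at 14 days). Depth limits SCNN1B and SCNN1G, whose libraries held 3 to 28 counts.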
